A study of Sus scrofa with 12 samples.

Results

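The genes described here are 10 energy isoenzymes of porcine muscle satellite cells, the stem cells that give rise to myoblasts and myotubes. The 5 muscle forms are CKM, PGAM2, ENO3, PYGM and PFKM, and the 5 ubiquitous forms are CKB, PGAM1, ENO1, LDHA and LDHB. They were chosen by name among 31908 measured genes. Symbols matched 9 of the 10, and PGAM1 was matched by its identifier (ENSSSCG00000010517). The rule used names only, but the list was drawn up with earlier results of these data known.

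The study holds 12 RNA-seq libraries in 4 groups of 3. Cells of the CBP arm and control cells (WT in the labels) were collected after 60h of differentiation, and cells of the same kinds were collected in proliferation, called 0h. The group names stand under a genotype label. The protocol names SGC-CBP30, an inhibitor aimed at the bromodomains of CBP and its relative p300, which acetylate histones. Its dose is labelled 5 uM/ml, given over 48 h to proliferating cells and over 60 h to differentiating ones. Whether the cells collected at 60h also met it before differentiation is not stated. The CBP arm is therefore taken as the cells that received the compound, although the same protocol text is attached to the control samples too and no control treatment is given. All groups grew in RPMI medium with fetal bovine serum. The cell line is labelled C3H, a name more familiar from mice, while organism and genome build are those of the pig. Nothing says that the replicates came from separate cultures, so p-values measure the spread between these libraries, which may be technical.

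Muscle contraction draws on phosphocreatine, glycogen and glucose in turn. Creatine kinase moves phosphate between phosphocreatine and ADP, and glycogen phosphorylase releases glucose units from glycogen. Phosphofructokinase commits sugar to glycolysis, phosphoglycerate mutase and enolase act late in it, and lactate dehydrogenase interconverts pyruvate and lactate. Several of these enzymes have a form that skeletal muscle uses and a form that most cells use. In mouse and human myogenesis CKM, PGAM2 and ENO3 are known to be gained on the way from myoblast to fibre, beside or in place of CKB, PGAM1 and ENO1. LDHA is counted as ubiquitous here but is also the main lactate dehydrogenase of fast muscle.

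Expression is given as FPKM, read numbers scaled to gene length and library total. Levels of different genes are then per base of counted length, which was recovered from the values. That length was 6060 bases for CKM, 1659 for CKB, 3214 for PGAM2, 2050 for PGAM1, 2404 for ENO3 and 3402 for ENO1. Whether these lengths match the transcripts of the cells was not tested, so orders, ratios and shares between genes rest on them. Library depth was 16095335 to 19155240 counted reads. All 10 genes passed the filter of at least 1 FPKM in at least 3 of the 12 libraries, which kept 11636 genes. CKM passed it without the CBP cells at 0h, where it lay below 1 FPKM in every library. Counts behind a value were lowest for CKM (9 to 12 reads per library in CBP cells at 0h) and LDHB (112 to 176 reads). The state of differentiation was read from 9 markers of myocytes and myotubes, which include CKM. Their summed level was 1275 to 1402 FPKM in CBP cells at 60h, 1827 to 1859 FPKM in control cells at 60h, 146 to 155 FPKM in CBP cells at 0h and 891 to 943 FPKM in control cells at 0h. Among the 9, 1 was called higher and 7 lower in CBP cells at 60h, and 8 lower at 0h (limma, adjusted p under 0.05). The shares of all genes were 44.7% higher and 27.0% lower at 60h, and 44.2% and 18.1% at 0h. In control cells at 0h, 8 of the 9 markers already averaged 1 FPKM or more. In bulk RNA, fewer cells of a type and less RNA per cell cannot be told apart, and this holds for every difference below.

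Positions are those of RefSeq genes on Sscrofa11.1. CKM (ENSSSCG00000036132) lies on chromosome 6 at 51704021 to 51716935 and PGAM2 (ENSSSCG00000016720) on chromosome 18 at 48693832 to 48712787. ENO3 (ENSSSCG00000017904) lies on chromosome 12 at 51954614 to 51959991, PYGM (ENSSSCG00000013022) on chromosome 2 at 7409330 to 7421256, and PFKM (ENSSSCG00000021129) on chromosome 5 at 78475473 to 78525052. PGAM1 lies on chromosome 14 at 108822782 to 108832818, ENO1 (ENSSSCG00000022343) on chromosome 6 at 69385879 to 69401664, and LDHA (ENSSSCG00000013366) on chromosome 2 at 40814163 to 40827284. CKB (ENSSSCG00000021220) is on an unplaced sequence. The reference names 2 loci LDHB, on chromosomes 2 and 5, and the LDHB row (ENSSSCG00000032557) could not be tied to either. The locus on chromosome 2 overlaps a gene listed as a pseudogene. PGAM2 overlaps VOPP1 and a long non-coding RNA gene, PFKM overlaps SENP1, and ENO1 overlaps a long non-coding RNA gene. No strand setting is given for the counting, so reads shared with such neighbours cannot be told apart.

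**Figure D1:**
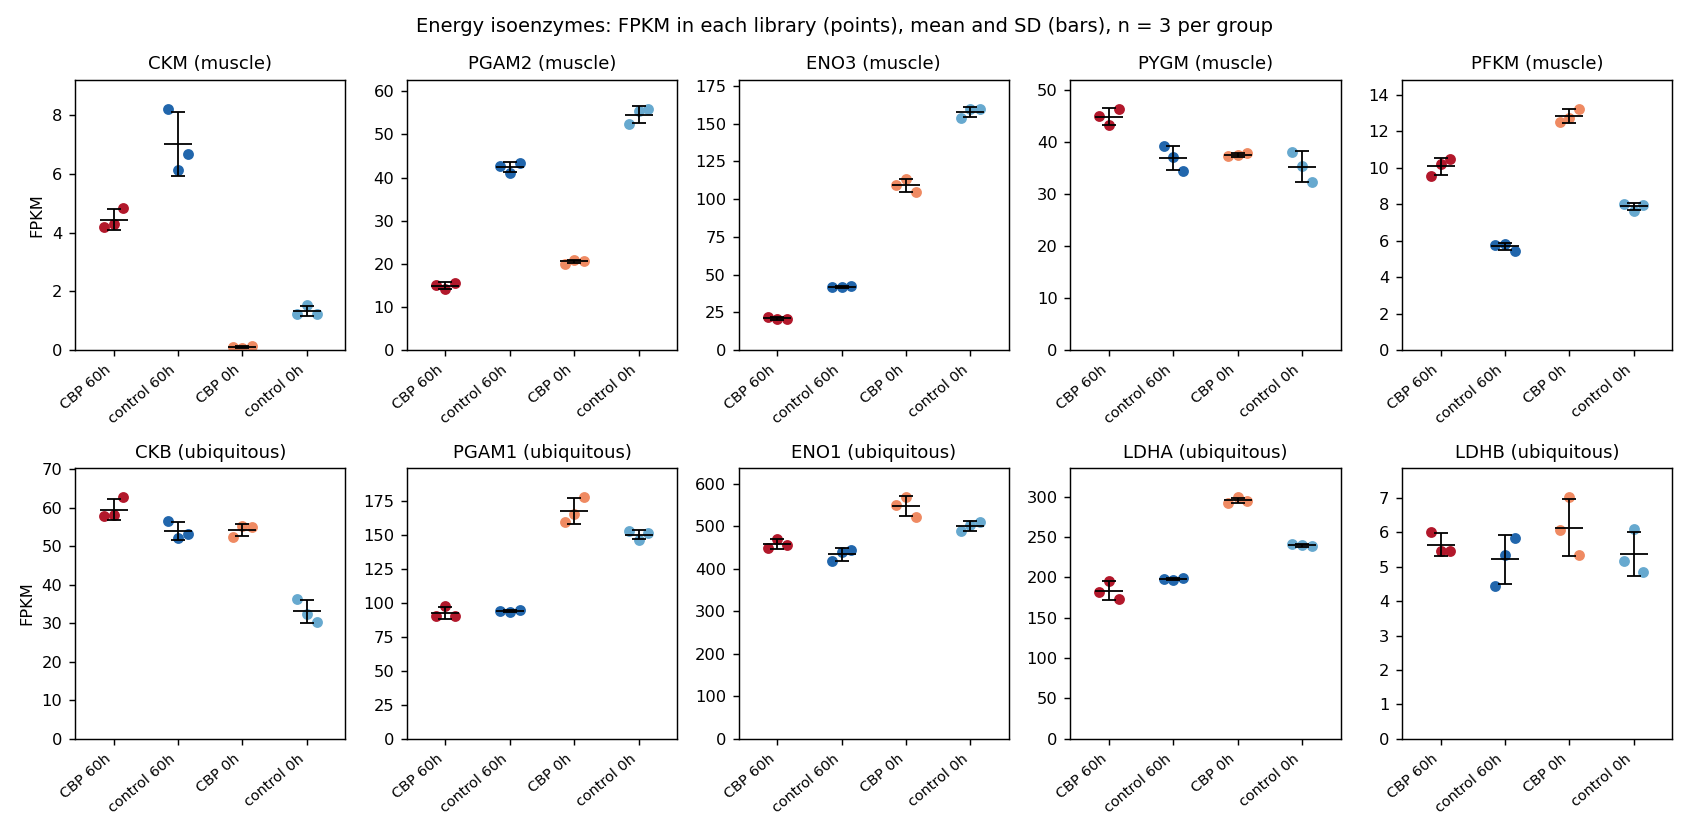
FPKM of the 10 isoenzymes in each library (points), with group mean and SD (bars), n = 3 per group; the y axes differ in scale and start at 0. CBP libraries lie below control libraries at both times for CKM, PGAM2 and ENO3 and above them for PFKM, while LDHB overlaps throughout.

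Enolase 1 (ENO1) had the highest FPKM of the 10 in all 4 groups. ENO1 averaged 459 ± 11.6 FPKM in CBP cells and 434 ± 14.4 FPKM in control cells at 60h (SD, n = 3 each). At 0h the averages were 547 ± 23.6 FPKM in CBP cells and 501 ± 11.13 FPKM in control cells. LDHA followed in each group. PGAM1 was next except in control cells at 0h, where ENO3 stood above it (158 ± 3.40 against 150 ± 3.53 FPKM) with no overlap of libraries. CKM and LDHB were at the bottom of the order in 3 of the 4 groups. In control cells at 60h, PFKM and LDHB overlapped at the bottom with CKM above them, and PGAM2 and ENO3 overlapped in the middle. Where the 10 hold both forms of an enzyme, the muscle form had the lower FPKM in every library. CKM was below CKB, PGAM2 below PGAM1 and ENO3 below ENO1.

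The cytosolic creatine kinases moved in opposite directions at 0h, where CKM fell and CKB rose in CBP cells. CKM, the muscle subunit, had 4.19, 4.29 and 4.83 FPKM in CBP cells at 60h, against 8.21, 6.13 and 6.68 FPKM in control cells. At 0h it had 0.108, 0.0805 and 0.123 FPKM in CBP cells, against 1.22, 1.54 and 1.23 FPKM in control cells. The 3 CBP libraries lay below the 3 control libraries at both times, and at 0h the CBP level rested on 33 reads in all, against 455 in control cells. CKM was 1.58-fold lower in CBP cells at 60h (log2 change of FPKM + 1 of -0.55, SE 0.092; limma, adjusted p = 0.000177) and 12.8-fold lower at 0h (log2 change -1.07, SE 0.092; limma, adjusted p = 1.06e-06). The pseudocount compresses the change at 0h: it was -2.81 with a pseudocount of 0.1 and -3.64 from limma-voom on recovered reads, an alternative added after seeing the data.

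CKB, the brain-type subunit made in most cells, had 57.7, 58.1 and 62.6 FPKM in CBP cells at 60h, against 56.4, 52.0 and 53.2 FPKM in control cells. In proliferation it had 52.4, 55.2 and 54.9 FPKM in CBP cells, against 36.4, 32.4 and 30.4 FPKM in control cells. The groups did not overlap at either time, but at 60h they were separated by a narrow gap. At 0h CKB was 1.64-fold higher in CBP cells (log2 change 0.70, SE 0.058; limma, adjusted p = 8.03e-07). At 60h the ratio was 1.10 (log2 change 0.14, SE 0.058; limma, adjusted p = 0.0466), only 0.04 above the median change of all genes. That call was lost without any 1 of the 3 CBP libraries or of control libraries 2 and 3 (adjusted p 0.0507 to 0.169), and it was lost with median-of-ratios scaling (log2 change 0.01, adjusted p = 0.883). Over its 17 alternatives the adjusted p ran between 0.0137 and 0.883. The mitochondrial form CKMT2 was below the filter, at 0.0648 and 0.110 FPKM in CBP and control cells at 60h and at 0.0422 and 0.0594 FPKM at 0h.

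The muscle form of phosphoglycerate mutase was lower in CBP cells at both times. PGAM2, which converts 3-phosphoglycerate to 2-phosphoglycerate in muscle, had 15.2, 14.1 and 15.6 FPKM in CBP cells at 60h, against 42.6, 41.1 and 43.5 FPKM in control cells. In proliferating cells it had 20.03, 20.9 and 20.7 FPKM in the CBP arm, against 52.4, 55.4 and 56.0 FPKM in controls. The highest CBP library stood well below the lowest control library at either time. PGAM2 fell 2.83-fold at 60h (log2 change -1.44, SE 0.040; limma, adjusted p = 2.73e-11) and 2.66-fold at 0h (log2 change -1.37, SE 0.040; limma, adjusted p = 9.17e-11). These changes were the largest of the 10 genes on this scale, although at 0h the ratio of means was larger for CKM, and both kept their call in all 17 alternatives, between -1.57 and -1.40 at 60h and between -1.495 and -1.35 at 0h.

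PGAM1, the form of most tissues, did not follow it. It had 89.9, 97.3 and 90.4 FPKM in CBP cells at 60h, against 94.1, 93.4 and 94.6 FPKM in control cells, and the groups overlapped. The log2 change was -0.02, with a 95% interval of -0.11 to 0.07 (limma, adjusted p = 0.62). With median-of-ratios scaling it was -0.15 and was called lower (adjusted p = 0.00577). At 0h PGAM1 had 159, 165 and 177 FPKM in CBP cells, against 153, 146 and 151 FPKM in control cells. It was called higher there (log2 change 0.15, SE 0.040; limma, adjusted p = 0.0055), but by only 0.04 above the median of all genes. Median-of-ratios scaling removed that call (log2 change 0.02, adjusted p = 0.703). Over the 17 alternatives of each comparison the adjusted p of PGAM1 ran between 0.00577 and 0.955 at 60h and between 0.0008 and 0.703 at 0h.

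Muscle enolase fell in CBP cells at both times, and the ubiquitous form moved little. ENO3, the muscle enolase, had 21.9, 20.5 and 20.6 FPKM in CBP cells at 60h, against 41.8, 41.6 and 42.7 FPKM in control cells. For proliferation the values were 110, 113 and 105 FPKM in CBP cells, against 154, 159 and 160 FPKM in control cells. No library of one arm reached the other arm at the same time. ENO3 was 2.00-fold lower in CBP cells at 60h (log2 change -0.97, SE 0.035; limma, adjusted p = 2.43e-10) and 1.44-fold lower at 0h (log2 change -0.53, SE 0.035; limma, adjusted p = 1.17e-07).

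ENO1 held most of the enolase FPKM. It had 448, 471 and 457 FPKM in CBP cells at 60h, against 418, 439 and 445 FPKM in control cells. In proliferation the levels were 551, 568 and 522 FPKM in CBP cells, against 488, 503 and 510 FPKM in control cells. At 60h the log2 change of 0.08 was not called (SE 0.036; limma, adjusted p = 0.0653), although it was without control library 3 (log2 change 0.10, adjusted p = 0.0498) and in limma-voom (0.08, adjusted p = 0.0252), with adjusted p of up to 0.318 in the other alternatives. ENO1 was called higher at 0h with a log2 change of 0.13 (SE 0.036; limma, adjusted p = 0.00884), which is within 0.01 of the median change of all genes. Its direction turned with median-of-ratios scaling, to -0.052 at 60h and -0.0072 at 0h, neither called. ENO2, the neuronal enolase, stayed at or below 2.19 FPKM on average and was 1.91-fold higher in CBP cells at 0h (log2 change 0.57, SE 0.096; limma, adjusted p = 0.000282).

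Muscle glycogen phosphorylase was higher in CBP cells at 60h and not called at 0h. PYGM, the muscle phosphorylase, had 44.99, 43.3 and 46.5 FPKM in CBP cells at 60h, against 39.2, 37.1 and 34.5 FPKM in control cells, with no overlap. It was 1.22-fold higher (log2 change 0.28, SE 0.057; limma, adjusted p = 0.000925), and by 0.15 with median-of-ratios scaling (adjusted p = 0.0279). At 0h it had 37.3, 37.5 and 37.9 FPKM in CBP cells, against 38.2, 35.5 and 32.3 FPKM in control cells. The libraries overlapped at 0h and the log2 change of 0.09 was not called (SE 0.057; limma, adjusted p = 0.195). It was 0.15 and called without control library 1 (adjusted p = 0.0396, in a range of 0.0396 to 0.673 over the alternatives), and it was -0.042 with median-of-ratios scaling. PYGB, the brain form, rose 2.70-fold at 60h (log2 change 1.18, SE 0.057; limma, adjusted p = 3.27e-09), at 7.75 ± 0.244 FPKM in CBP cells and 2.87 ± 0.270 FPKM in control cells (SD, n = 3 each). PYGL, the liver form, fell at 60h by 0.25 on the log2 scale (SE 0.030; limma, adjusted p = 9.05e-06) and rose at 0h by 0.37 (SE 0.030; limma, adjusted p = 6.53e-07).

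PFKM was the only muscle form called higher in CBP cells at both times. PFKM had 9.55, 10.2 and 10.5 FPKM in CBP cells at 60h, against 5.78, 5.83 and 5.44 FPKM in control cells. At 0h it had 12.5, 12.7 and 13.2 FPKM in CBP cells, against 8.01, 7.63 and 7.97 FPKM in control cells. All CBP libraries were above all control libraries of the same time. PFKM was 1.77-fold higher at 60h (log2 change 0.73, SE 0.043; limma, adjusted p = 1.81e-08) and 1.63-fold higher at 0h (log2 change 0.64, SE 0.043; limma, adjusted p = 1.29e-07). PFKL, the liver form, was higher by 0.79 at 60h (SE 0.039; limma, adjusted p = 3.72e-09) and by 0.44 at 0h (SE 0.039; limma, adjusted p = 1.39e-06). PFKP, the platelet form, was lower at 60h (log2 change -0.35, SE 0.035; limma, adjusted p = 2.58e-06) and higher at 0h (log2 change 0.36, SE 0.035; limma, adjusted p = 3.2e-06).

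The FPKM of the lactate dehydrogenase rows was almost all that of LDHA, the form that favours lactate production. The LDHB row was not tied to either locus of that name, and whether it misses LDHB reads was not tested. LDHA had 182, 196 and 173 FPKM in CBP cells at 60h, against 197, 196 and 199 FPKM in control cells. For 0h it had 292, 299 and 295 FPKM in CBP cells, against 241, 239 and 238 FPKM in control cells. The arms were wide apart at 0h and nearly touched at 60h. LDHA was 1.23-fold higher in CBP cells at 0h (log2 change 0.30, SE 0.036; limma, adjusted p = 1.66e-05). At 60h it was lower by 0.11 (SE 0.036; limma, adjusted p = 0.0164). That call was lost without CBP library 3 (log2 change -0.07, adjusted p = 0.073), with quantile scaling (-0.06, adjusted p = 0.0853) and when the fit held no other groups (adjusted p = 0.0525), in a range of 0.000258 to 0.0853 over 17 alternatives.

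LDHB, the form that favours lactate use, had 6.02, 5.45 and 5.47 FPKM in CBP cells at 60h, against 4.45, 5.34 and 5.85 FPKM in control cells. At 0h the values were 6.06, 7.02 and 5.34 FPKM in CBP cells, against 5.18, 6.09 and 4.86 FPKM in control cells. The 4 groups overlapped, and no comparison called it. The 95% intervals of its log2 change were -0.12 to 0.33 at 60h and -0.06 to 0.39 at 0h, and a change within them was not detectable at this depth.

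**Figure D2:**
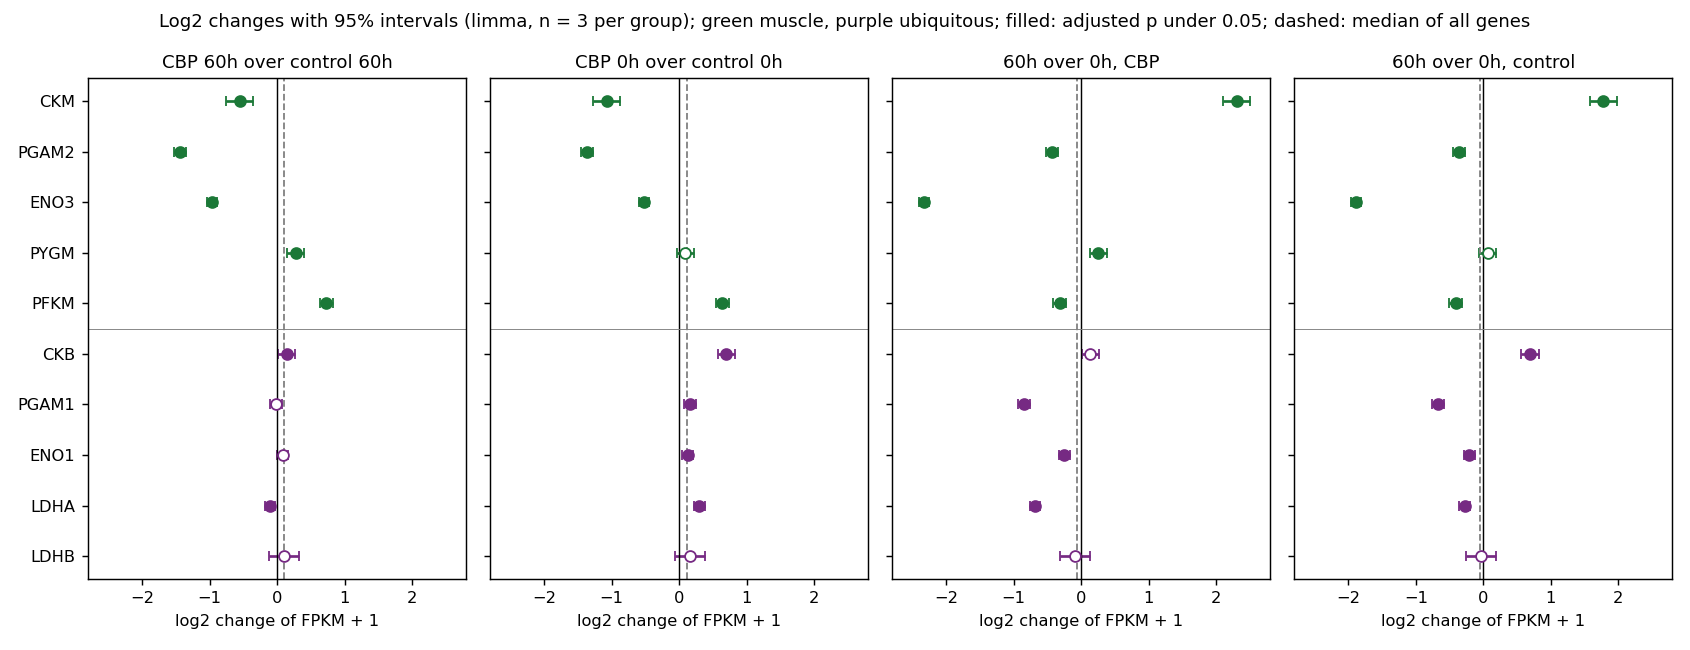
Log2 change of FPKM + 1 (x axis) with its 95% interval for the 10 isoenzymes in 4 comparisons, from limma with n = 3 per group; green points are muscle forms, purple points ubiquitous forms, filled points have an adjusted p under 0.05, and the dashed line is the median of all genes. CKM, PGAM2 and ENO3 lie left of 0 in both comparisons of CBP with control cells, and PFKM lies right of it.

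Counts of calls were close to those of all genes, so they are not a result about the isoenzymes. Of the 10 genes, 3 were called higher and 4 lower in CBP cells at 60h, while 71.6% of all 11636 tested genes were called, 44.7% higher and 27.0% lower. The libraries of the arms did not overlap for 8 of the 10, against 74.3% of all genes. For 0h, 5 were called higher and 3 lower, against 62.3% of all genes (44.2% higher and 18.1% lower), and 8 of 10 had no overlap, against 66.8%. The median change of all genes was 0.10 at 60h and 0.12 at 0h. With median-of-ratios scaling, which brings that median to about 0, 3850 genes were called higher and 4180 lower at 60h, against 5200 and 3137 here. At 0h the same scaling gave 2990 higher and 3087 lower, against 5148 and 2102, and 3 isoenzymes higher and 3 lower.

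Muscle and ubiquitous forms are set side by side here without a test between them. At 60h the median log2 change was -0.55 over the 5 muscle forms and 0.08 over the 5 ubiquitous forms, beside 0.10 over all genes. At 0h these medians were -0.53, 0.16 and 0.12. The muscle medians are over genes that moved both ways. Among muscle forms, 2 were called higher and 3 lower at 60h, and 1 higher and 3 lower at 0h. Among ubiquitous forms, 1 was higher and 1 lower at 60h, and 4 were higher at 0h, with LDHB not called. A fall of 0.5 or more on the log2 scale was called for CKM, PGAM2 and ENO3 at both times, a size reached downward by 11.7% of all genes at 60h and 7.76% at 0h. Upward it was reached by PFKM at both times and by CKB at 0h, against 14.6% of all genes at 60h and 6.76% at 0h. PFKM at both times and PYGM at 60h moved against the other muscle forms.

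The balance of forms within a family was read as a ratio inside each library, which does not depend on library scaling. These ratios are described without a test. The mean log2 ratio of CKM to CKB was -3.75 ± 0.046 in CBP cells and -2.95 ± 0.16 in control cells at 60h, and -9.05 ± 0.33 and -4.64 ± 0.25 at 0h (SD, n = 3 each). PGAM2 over PGAM1 was -2.63 ± 0.13 in CBP cells and -1.15 ± 0.031 in control cells at 60h, and -3.02 ± 0.062 and -1.46 ± 0.078 at 0h. ENO3 over ENO1 was -4.45 ± 0.088 in CBP cells and -3.37 ± 0.041 in control cells at 60h, and -2.32 ± 0.0068 and -1.67 ± 0.0069 at 0h. All 3 ratios were lower in every CBP library than in every control library of the same time, by 1.73-fold, 2.79-fold and 2.12-fold at 60h and by 21.2-fold, 2.96-fold and 1.58-fold at 0h. The CKM to CKB ratio in CBP cells at 0h was -8.06 with a pseudocount of 0.1 added to both levels.

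PFKM over the sum of PFKL and PFKP went the other way. It was 1.37-fold higher in CBP cells at 60h and 1.22-fold higher at 0h, with no overlap. PYGM over the sum of PYGB and PYGL was 1.20-fold higher in CBP cells at 60h but 1.29-fold lower at 0h, again with no overlap at either time. The LDHA to LDHB ratio overlapped between the arms at both times, at 30.2, 35.9 and 31.6 in CBP cells and 44.3, 36.8 and 34.0 in control cells at 60h.

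**Figure D3:**
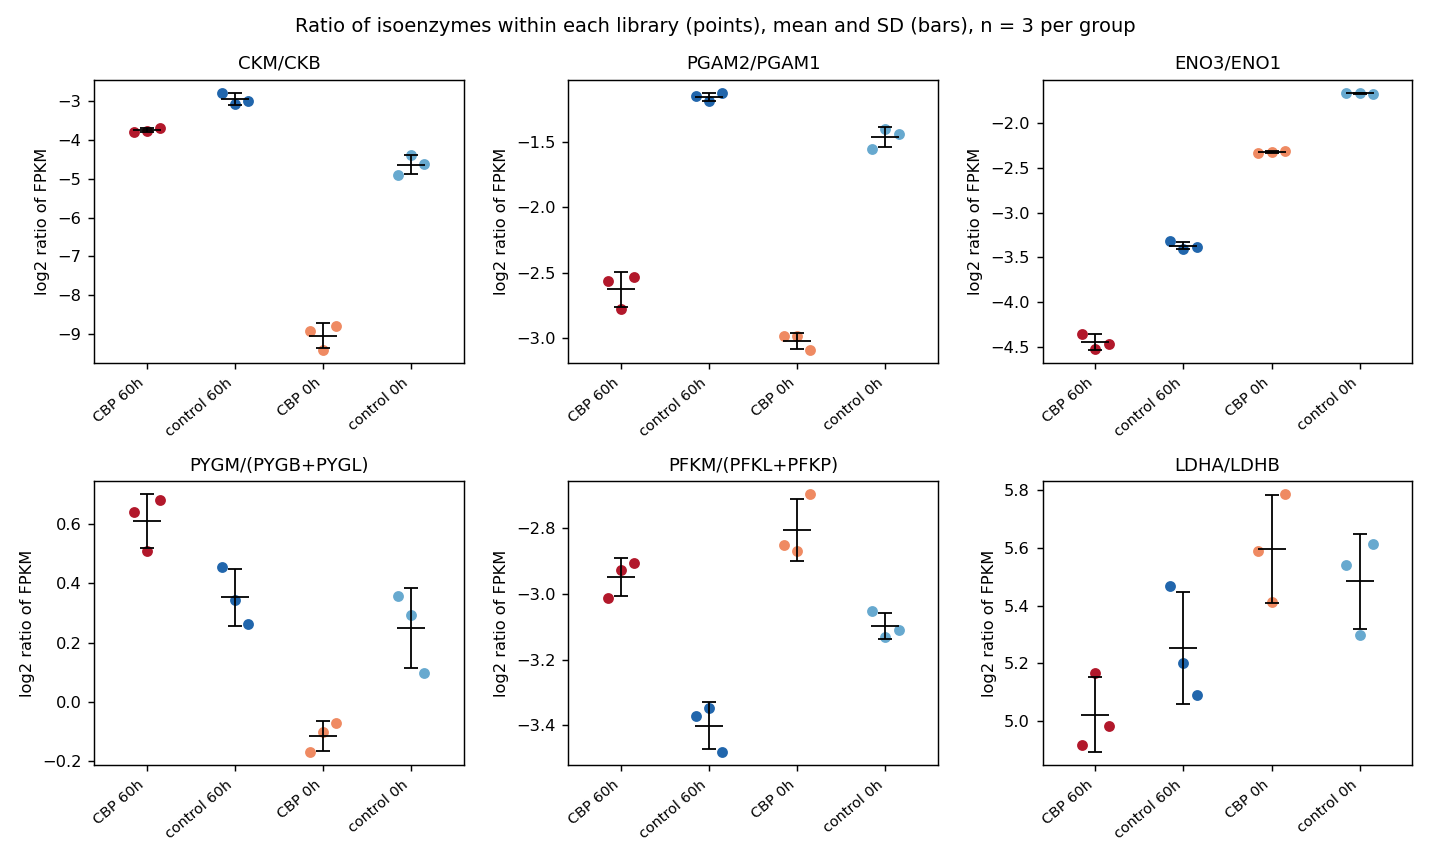
Log2 ratio of FPKM between isoenzymes (y axis) in each library (points), with mean and SD (bars), n = 3 per group. The ratios of CKM to CKB, PGAM2 to PGAM1 and ENO3 to ENO1 are lower in CBP than in control libraries at both times, and that of PFKM to PFKL plus PFKP is higher.

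The share of the muscle form in the family's summed FPKM varied between families and groups. CKM held 6.93% ± 0.207 of creatine kinase FPKM (CKM, CKB and CKMT2) in CBP cells and 11.4% ± 1.11 in control cells at 60h, and 0.191% ± 0.0406 and 3.88% ± 0.637 at 0h (SD, n = 3 each). PGAM2 held 13.9% ± 1.10 of mutase FPKM in CBP cells and 31.1% ± 0.458 in control cells at 60h, and 10.9% ± 0.418 and 26.7% ± 1.05 at 0h. ENO3 held 4.37% ± 0.258 of enolase FPKM in CBP cells and 8.80% ± 0.233 in control cells at 60h, and 16.6% ± 0.0636 and 23.9% ± 0.0845 at 0h. PYGM held most of the phosphorylase FPKM in 3 groups, at 60.4% ± 1.497 in CBP cells and 56.1% ± 1.65 in control cells at 60h, and 48.0% ± 0.871 and 54.3% ± 2.32 at 0h. LDHA held 97.0% to 97.9% of lactate dehydrogenase FPKM on average in the 4 groups, with LDHB taken from the row not tied to a locus.

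The summed FPKM of a family overlapped between the arms for enolase at both times and for creatine kinase at 60h, and for no other of the 6 families. Summed enolase was 481 ± 11.14 FPKM in CBP cells and 477 ± 14.9 FPKM in control cells at 60h, and 659 ± 28.1 and 659 ± 14.5 FPKM at 0h. Summed glycogen phosphorylase was 74.3 ± 0.951 FPKM in CBP cells and 65.8 ± 2.34 FPKM in control cells at 60h, and 78.2 ± 0.821 and 64.98 ± 2.83 FPKM at 0h. Summed phosphoglycerate mutase was 108 ± 3.45 FPKM in CBP cells and 136 ± 1.81 FPKM in control cells at 60h. Summed phosphofructokinase was 87.7 ± 1.08 FPKM in CBP cells and 65.6 ± 0.4996 FPKM in control cells at 60h, and 102 ± 3.38 and 75.2 ± 1.38 FPKM at 0h. Summed creatine kinase was 54.3 ± 1.48 FPKM in CBP cells and 34.4 ± 3.04 FPKM in control cells at 0h, nearly all of it CKB.

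Between 0h and 60h the muscle forms moved in different directions. The 2 times differ in stage and in the labelled hours of the protocol (48 h and 60 h), which cannot be told apart. In control cells CKM was 5.27-fold higher at 60h than at 0h (log2 change 1.78, SE 0.092; limma, adjusted p = 6.91e-09), with 7.01 ± 1.08 FPKM at 60h and 1.33 ± 0.179 FPKM at 0h (SD, n = 3 each). ENO3 was 3.75-fold lower (log2 change -1.88, SE 0.035; limma, adjusted p = 1.95e-12), with 42.0 ± 0.602 FPKM at 60h and 158 ± 3.40 FPKM at 0h. PGAM2 fell by 0.36 (SE 0.040; limma, adjusted p = 6.88e-06) and PFKM by 0.41 (SE 0.043; limma, adjusted p = 3.88e-06). PYGM, with overlapping libraries, was not called (log2 change 0.06; limma, adjusted p = 0.342), though it was with TPM (0.15, adjusted p = 0.0479) and median-of-ratios scaling (0.13, adjusted p = 0.049), in a range of 0.0479 to 0.974 over 17 alternatives. CKM was the only muscle form called higher in differentiated control cells on the FPKM scale.

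The ubiquitous forms mostly fell from 0h to 60h, and CKB rose. In control cells CKB was 1.63-fold higher at 60h (log2 change 0.69, SE 0.058; limma, adjusted p = 5.37e-07). PGAM1 was 1.60-fold lower (log2 change -0.67, SE 0.040; limma, adjusted p = 2.81e-08), ENO1 fell by 0.21 (SE 0.036; limma, adjusted p = 0.000305) and LDHA by 0.28 (SE 0.036; limma, adjusted p = 2.36e-05). LDHB was not called. In all, 2 of the 10 genes were called higher and 6 lower, while 66.8% of all genes were called, 28.8% higher and 38.0% lower. The libraries of the 2 times did not overlap for 8 of the 10, against 70.8% of all genes. The median of all genes was -0.05. With TPM, 4090 genes were called higher and 3580 lower, against 3351 and 4424.

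In CBP cells CKM was 42.7-fold higher at 60h than at 0h, with 4.44 ± 0.348 FPKM at 60h and 0.104 ± 0.0215 FPKM at 0h (SD, n = 3 each). Its log2 change was 2.30 (SE 0.092; limma, adjusted p = 4.18e-10), and 5.38 from limma-voom on recovered reads. ENO3 was 5.20-fold lower (log2 change -2.33, SE 0.035; limma, adjusted p = 9.58e-14). PYGM rose by 0.25 (SE 0.057; limma, adjusted p = 0.00178), PGAM2 fell by 0.43 (SE 0.040; limma, adjusted p = 8.68e-07) and PFKM fell by 0.32 (SE 0.043; limma, adjusted p = 2.55e-05). PGAM1 fell by 0.85, LDHA by 0.69 and ENO1 by 0.25 (limma, adjusted p of 2e-09, 4.29e-09 and 4.57e-05).

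CKB was not called between the times in CBP cells (log2 change 0.13, SE 0.058; limma, adjusted p = 0.0586), although its libraries did not overlap. It was called higher with TPM, median-of-ratios scaling, quantile scaling, a fit without the other groups and limma-voom (log2 change 0.13 to 0.25, adjusted p 0.00302 to 0.0193), and its adjusted p reached 0.204 in the others. Here too 2 genes were called higher and 6 lower, while 72.7% of all genes were called, 31.3% higher and 41.5% lower. Ranges did not overlap for 9 of the 10, against 75.2% of all genes, and the median of all genes was -0.06. With TPM, 4557 genes were called higher and 3794 lower, against 3638 and 4826.

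The change in CBP relative to control cells differed between the times for 5 of the 10 genes, by the test of that difference (the log2 change at 60h minus that at 0h). Over all genes 50.9% passed this test, 24.3% upward and 26.7% downward. CKM was the 1 gene called with a positive difference, 0.52 (SE 0.13; limma, adjusted p = 0.00533), as its fall was smaller at 60h. With a pseudocount of 0.1 that difference was 2.17, and by limma-voom 2.99. CKB (-0.56, SE 0.082; limma, adjusted p = 0.000131) and LDHA (-0.41, SE 0.050; limma, adjusted p = 3.16e-05) had risen at 0h, while at 60h CKB was barely higher and LDHA slightly lower. ENO3 (-0.44, SE 0.049; limma, adjusted p = 1.37e-05) fell more at 60h.

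PGAM1 had the smallest called difference, -0.18 (SE 0.057; limma, adjusted p = 0.0212). It was lost without CBP library 1 at 60h, CBP library 3 at 60h or control library 2 at 0h (adjusted p 0.0512 to 0.0535) and with TPM (adjusted p = 0.0553), and its adjusted p was as low as 0.00279 in the other alternatives. PGAM2 (-0.08; limma, adjusted p = 0.279) and PFKM (0.09; limma, adjusted p = 0.245) did not pass, with 95% intervals of -0.20 to 0.05 and -0.04 to 0.22. PYGM missed the threshold (0.19; limma, adjusted p = 0.0734) and passed without control library 3 at 0h (0.25, adjusted p = 0.0124) or control library 1 at 60h (0.23, adjusted p = 0.0346). It also passed with TPM, quantile scaling and limma-voom (0.19 to 0.22, adjusted p 0.0218 to 0.0487), and its adjusted p reached 0.168 in the others. ENO1 (-0.05; limma, adjusted p = 0.463) and LDHB (-0.06; limma, adjusted p = 0.761) did not pass.

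**Figure D4:**
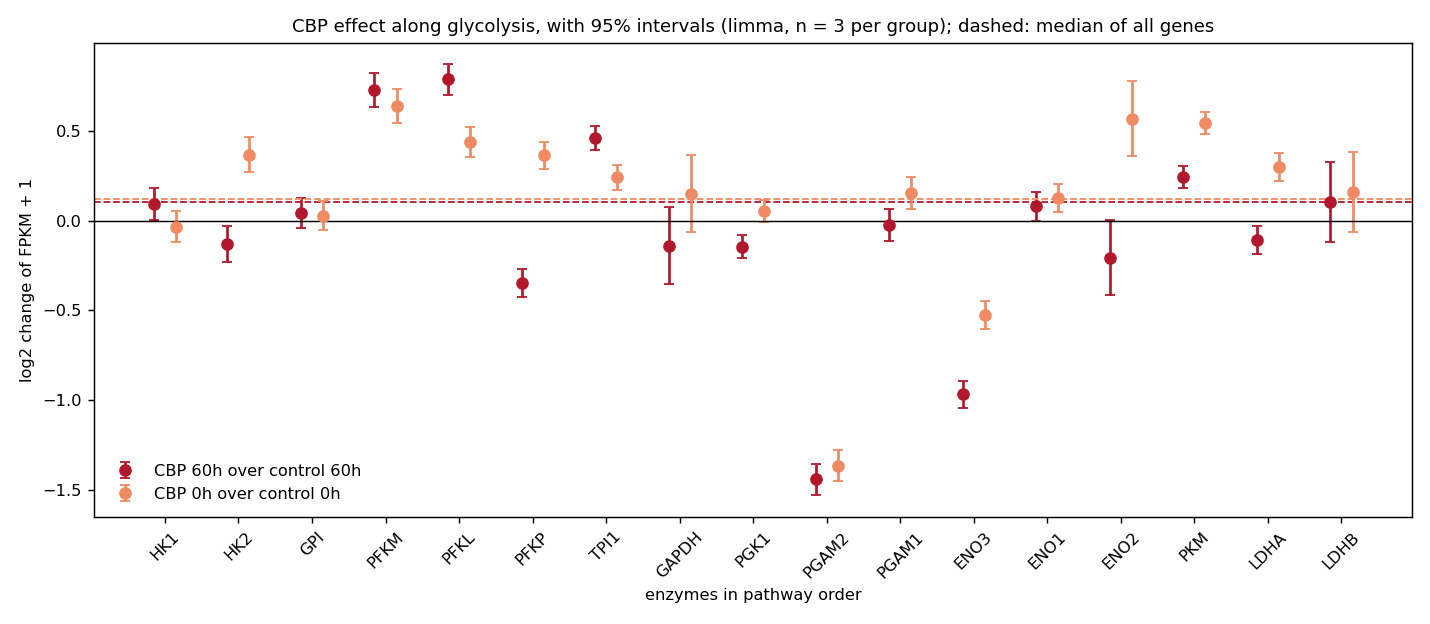
Log2 change of FPKM + 1 in CBP over control cells (y axis) for glycolytic enzymes in pathway order (x axis), at 60h and at 0h, with 95% intervals from limma, n = 3 per group; dashed lines are the medians of all genes. Of the genes plotted, which leave out the regulatory enzyme PFKFB2, PGAM2 and ENO3 stand lowest at both times. PFKM, PFKL, TPI1 and PKM are above the median at both.

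The other enzymes of glycolysis place these changes in the pathway. Without the 10 genes, 14 glycolysis genes were tested, of which 3 were called higher and 5 lower in CBP cells at 60h and 9 higher and 1 lower at 0h. Of all genes, 44.7% were called higher and 27.0% lower at 60h, and 44.2% and 18.1% at 0h. The median log2 change of the 14 was -0.06 at 60h and 0.21 at 0h, beside 0.10 and 0.12 over all genes. TPI1, triosephosphate isomerase, rose by 0.46 at 60h (SE 0.031; limma, adjusted p = 6.69e-08) and by 0.24 at 0h (SE 0.031; limma, adjusted p = 3.43e-05). PKM, pyruvate kinase, was at 271 ± 3.19 FPKM in CBP cells and 228 ± 5.48 FPKM in control cells at 60h, and at 511 ± 16.2 and 349 ± 7.09 FPKM at 0h, and was called higher at both times. PFKFB2, which makes the activator of phosphofructokinase, fell by 0.80 at 60h (SE 0.050; limma, adjusted p = 3.3e-08) and by 0.59 at 0h (SE 0.050; limma, adjusted p = 9.54e-07). Between the times, 2 of the 14 were called higher and 9 lower in control cells, and 3 higher and 11 lower in CBP cells. The shares of all genes were 28.8% higher and 38.0% lower in control cells, and 31.3% and 41.5% in CBP cells.

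GAPDH and ALDOA, enzymes of nearly every cell, were listed at very low levels. GAPDH averaged 1.29 and 1.52 FPKM in CBP and control cells at 60h and 3.15 and 2.72 FPKM at 0h, and ALDOA 0.0412 to 0.0511 FPKM in the 4 groups. The reason was not tested. The orders, shares and family sums above therefore describe the FPKM of rows, which is not taken as the level of the enzymes.

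Around glycogen phosphorylase, 20 other glycogen genes were tested. Of these, 7 were called higher and 12 lower at 60h, and 8 higher and 9 lower at 0h. Among all genes, 44.7% were called higher and 27.0% lower at 60h, and 44.2% and 18.1% at 0h. PHKG1, the muscle catalytic subunit of the kinase that activates phosphorylase, was 3.81-fold lower in CBP cells at 60h, with 1.18 FPKM in CBP cells and 4.49 FPKM in control cells (log2 change -1.33, SE 0.070; limma, adjusted p = 6.37e-09). It was also lower at 0h (log2 change -0.70, SE 0.070; limma, adjusted p = 3.75e-06). PPP1R3B, which targets protein phosphatase 1 to glycogen, fell by 1.36 at 60h (SE 0.075; limma, adjusted p = 9.76e-09), and GBE1, the branching enzyme, by 0.86 (SE 0.037; limma, adjusted p = 1.07e-09). GYS1, the muscle glycogen synthase, was at 59.5 FPKM in CBP cells and 86.1 FPKM in control cells at 60h, and at 61.6 and 132 FPKM at 0h, and was called lower at both times.

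Among 10 other phosphagen and adenylate genes, 1 was called higher and 7 lower at 60h, and 3 higher and 4 lower at 0h, beside 44.7% higher and 27.0% lower of all genes at 60h and 44.2% and 18.1% at 0h. GAMT, which makes creatine, rose by 0.63 at 60h (SE 0.081; limma, adjusted p = 2e-05) and by 0.56 at 0h (SE 0.081; limma, adjusted p = 8.19e-05). ADSS1, the muscle adenylosuccinate synthase, fell by 0.96 at 60h (SE 0.059; limma, adjusted p = 2.67e-08) and by 0.46 at 0h (SE 0.059; limma, adjusted p = 3.28e-05).

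Glucose and lactate transport and pyruvate entry gave 11 tested genes. Of these, 3 were called higher and 4 lower at 60h, and 6 higher and 2 lower at 0h. The shares of all genes were 44.7% higher and 27.0% lower at 60h, and 44.2% and 18.1% at 0h. SLC16A3, the lactate exporter of glycolytic cells, fell by 0.83 at 60h (SE 0.12; limma, adjusted p = 3.85e-05). PDK3 and PDK4, kinases that restrain pyruvate dehydrogenase, rose by 0.96 and 0.54 at 60h (limma, adjusted p of 1.5e-09 and 8.64e-05). Over all 55 tested energy genes outside the 10, 14 were called higher and 28 lower at 60h, with a median log2 change of -0.14, and 26 higher and 16 lower at 0h, with a median of 0.05. The medians of all genes were 0.10 and 0.12. Over all genes the called shares were again 44.7% higher and 27.0% lower at 60h, and 44.2% and 18.1% at 0h.

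Regulators of muscle energy genes were called in both directions. Of 20 tested, 9 were called higher and 11 lower at 60h, and 5 higher and 12 lower at 0h, while of all genes 44.7% were higher and 27.0% lower at 60h and 44.2% and 18.1% at 0h. MYOG, the differentiation factor whose binding sites lie in the CKM enhancer of the mouse, was at 448 ± 9.50 FPKM in CBP cells and 589 ± 13.2 FPKM in control cells at 60h, and at 28.5 ± 0.996 and 343 ± 10.0 FPKM at 0h (SD, n = 3 each). MEF2C, a partner of the myogenic factors, was at 30.8 and 69.6 FPKM in CBP and control cells at 60h and at 11.6 and 35.3 FPKM at 0h. Both were called lower in CBP cells at both times. EYA1 and CREBBP rose in CBP cells at 60h, by 0.66 and 0.65 on the log2 scale (limma, adjusted p of 8.79e-07 and 5.79e-07). The part of these regulators in the isoenzyme results was not tested. HIF1A, which is known to raise LDHA, PGAM1 and ENO1 in low oxygen, had a log2 change of 0.06 at 60h (limma, adjusted p = 0.0467), below the median of all genes, and rose by 0.24 at 0h (limma, adjusted p = 5.46e-06). Of 15 tested HIF targets outside energy metabolism, 6 were called higher and 6 lower at 60h, and 5 higher and 5 lower at 0h. The shares of all genes in each direction are those given above for the regulators.

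Summed levels of marker lists also differed between the arms. The summed level of 7 smooth muscle and pericyte markers was 2652 to 2846 FPKM in CBP cells and 3925 to 3943 FPKM in control cells at 60h, and 1447 to 1497 and 3708 to 3857 FPKM at 0h. Among these 7, 1 was called higher and 5 lower at 60h, and all 7 lower at 0h. The 6 fibroblast markers summed to 2374 to 2602 FPKM in CBP cells and 3616 to 3771 FPKM in control cells at 60h, and to 488 to 502 and 1008 to 1044 FPKM at 0h. At 60h their members went both ways, with 3 called higher and 2 lower and COL1A1 making up most of the sum (1551 FPKM in CBP cells and 2854 FPKM in control cells). At 0h 5 of the 6 were called lower. The 5 markers of satellite cells and myoblasts, the labelled cell type, summed to 442 to 472 FPKM in CBP cells and 866 to 1033 FPKM in control cells at 60h, and to 331 to 360 and 943 to 990 FPKM at 0h. Most of that sum was DES, at 342 FPKM in CBP cells and 831 FPKM in control cells at 60h, while PAX7 was higher in CBP cells (12.3 against 7.57 FPKM). Of the 4 that were tested, 2 were called higher and 2 lower at 60h, and all 4 lower at 0h. Beside these marker counts, the shares of all genes were 44.7% higher and 27.0% lower at 60h, and 44.2% and 18.1% at 0h. The 5 adipocyte, 4 endothelial and 4 immune markers each summed to under 7 FPKM in every library, and of the 5 neural markers TUBB3 alone averaged 1 FPKM or more, at 60h. The neural sum was 14.95 to 15.3 FPKM in CBP cells and 6.45 to 7.67 FPKM in control cells at 60h. The part of these cell types in the results was not tested.

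The genes whose levels most resembled each muscle form were found by Pearson's r of log2(FPKM + 1) over the 12 libraries, which fall into 4 groups and are not independent points. PGAM2 was most like MYL2, a myosin light chain of slow muscle and heart (r = 0.999), with MYL2 at 38.4 and 297 FPKM in CBP and control cells at 60h and at 75.4 and 515 FPKM at 0h. ADAM19 and STYXL2 followed. CKM was most like DKK3 (r = 0.997), ENO3 most like ACTN4 (r = 0.996), a non-muscle actinin, and PFKM most like AARS2 (r = 0.994), a mitochondrial alanyl-tRNA synthetase. PYGM had no gene as close, the best being FAM43A (r = 0.949). For the ubiquitous forms examined, CKB was most like EIF4A3 (r = 0.985) and LDHA most like PREX1 (r = 0.991). No 2 of these isoenzymes shared a nearest gene.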

How the data were processed

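The authors deposited 1 table of FPKM values for 31908 genes, with 1 column per library and no pooling of replicates. The submitters' processing notes name Trimmomatic, featureCounts and the build Sscrofa11.1, without versions. Which aligner, annotation release and strand setting were used is not given in the sources used here. Table columns named NC were taken as the WT samples of the labels.

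Each deposited FPKM value is a multiple of what 1 read adds. All 22521 genes above 0 gave whole reads (tolerance 0.001), which supplied depth, counted lengths and read numbers only, apart from 1 alternative. Genes with 1 FPKM or more in at least 3 libraries were kept (11636). Log2(FPKM + 1) was fitted with limma 3.58.1 in R 4.3.3 over 4 group means with a trended empirical Bayes spread. Tests were two-sided. Benjamini-Hochberg adjustment ran within each comparison over all 11636 genes, with calls at an adjusted p under 0.05. Log2 changes on this scale understate changes of low genes, and folds are ratios of group means. The scripts were tested on simulated data. Alternatives changed the pseudocount, the filter, the scaling, the spread estimate, the fitted groups, a replicate block and each library in turn, and limma-voom on the recovered reads was added after seeing the data.

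The isoenzymes, gene lists and markers were chosen with earlier results of these data known. The text names all 10 isoenzymes, their family members, up to 4 called genes per energy list and comparison, named regulators, and the most similar genes. GPI, HK1 and other listed genes appear only in counts or in a plot. The planned display of promoter and protein sequences was not made. Python 3.11.15 was used for summaries.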

Additional observations from a re-analysis of the deposited data

Results flagged for a closer look

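The log2 change of CBP over control cells differed between 60h and 0h for 5 of the 10 isoenzymes by limma's test of the difference. CKM had a difference of 0.52, a smaller fall at 60h than at 0h. ENO3 had a difference of -0.44, a larger fall at 60h. CKB had a difference of -0.56 and LDHA of -0.41, each higher in CBP cells at 0h, while at 60h CKB was close to the median of all genes and LDHA slightly lower than in control cells. PGAM1 had a difference of -0.18. Since 50.9% of all tested genes passed the same test, such differences were common in these libraries.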

How the results depend on the processing

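Over 900 alternative values of the isoenzymes' log2 changes, 855 kept direction and side of the threshold, 18 lost the call, 16 gained one and 11 changed direction. The changes of CKM, PGAM2, ENO3 and PFKM between CBP and control cells kept their calls at both times in all 17 alternatives. The changes of direction concerned small values that were not called under the alternative. Median-of-ratios scaling gave -0.052 for ENO1 and -0.0092 for LDHB at 60h, -0.042 for PYGM and -0.0072 for ENO1 at 0h, and 0.018 for LDHB between the times in control cells. TPM gave 0.035 for LDHB between the times in control cells and 0.0021 in CBP cells. Leaving out 1 library turned LDHB in control cells between the times (-0.11 to 0.052) and the difference of its changes between the times (-0.15 to 0.028).

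Counts moved by more than 1.5 times in few settings. Median-of-ratios scaling gave 2990 genes (main 5148) and 3 isoenzymes (main 5) called higher at 0h. For the difference of changes between the times, 2 isoenzymes rather than 1 were called higher with TPM, quantile scaling and limma-voom on recovered reads, and 1 to 2 when 1 library was left out. A pseudocount of 0.1 gave a log2 CKM to CKB ratio of -8.06 and a CKM share of 0.374% in CBP cells at 0h. The cause of these moves was not tested.

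Replicate numbers did not pair the libraries: same-numbered libraries had correlations of deviations between -0.094 and 0.082 over 18 pairs. A replicate block gave 5167 genes higher and 3103 lower at 60h and ended the CKB call there (log2 change 0.14, adjusted p = 0.0619). It changed no other call among the isoenzymes.

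Depth limits CKM in CBP cells at 0h (9 to 12 reads per library) and LDHB, and with 3 libraries a group small changes cannot be separated from scaling. Each call assumes that the CBP arm is what the labels' protocol describes.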
